A study of Mus musculus with 4 samples.

Results

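Small leucine-rich proteoglycans are secreted proteins built around a core of leucine-rich repeats, and most carry glycosaminoglycan or sugar chains. They bind collagen fibrils in bone, tendon, cartilage and cornea, where they are known for setting how thick fibrils grow and how they pack, and several also bind growth factors such as TGF-β. The 9 genes described here were *Dcn* (decorin), *Aspn* (asporin), *Lum* (lumican), *Kera* (keratocan), *Fmod* (fibromodulin), *Prelp*, *Omd* (osteomodulin), *Epyc* (epiphycan) and *Ogn* (osteoglycin). They were taken by name, and all were kept whatever their values. Earlier results of these data were known when the genes were chosen. Every accessible region that overlapped a gene or the 10 kb on either side of it was kept, which gave 68 regions of the 255864 in the count table, and each region belonged to a single member gene. *Aspn*, *Omd* and *Ogn* lie side by side on chromosome 13, *Dcn*, *Lum*, *Kera* and *Epyc* on chromosome 10, and *Fmod* and *Prelp* on chromosome 1.

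Accessibility was measured by ATAC-seq, in which a transposase inserts adapters into open DNA, in primary osteoblasts of 3-day-old C57BL/6 mice. The WT group was compared with TCKO, in which Prx1-Cre, a recombinase switched on in limb and other mesenchymal cells, met floxed (fl/fl) alleles of *Tet1*, *Tet2* and *Tet3*. The TET enzymes encoded by these genes oxidise 5-methylcytosine in DNA. The WT animals are labelled wild type, and whether they carried floxed alleles or Cre is not stated in the labels. There were 4 samples, 2 a genotype, but the count table held 1 merged column for each, and a protocol text spoke of 3 repeats, so the number of merged libraries is uncertain. Whether the samples came from separate animals or cultures was not stated. The spread between replicates therefore could not be measured, no test of genotype was made, and every difference below compares merged WT with merged TCKO libraries without a replicate check. The interval after each ratio is a 95% interval that covers counting error alone.

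The columns held 56898657 WT and 34608167 TCKO counts. A ratio here is log2 of TCKO over WT after the TCKO counts were scaled to the WT total, so that 0 means an equal share of all counts, and -1 means that TCKO was 2-fold lower. The median over all regions was 0.06 and the median over the loci of 19356 protein-coding genes, each summed in the same way with 10 kb on either side, was -0.02. Loci of 8 osteoblast genes had a median ratio of -0.08, from -0.38 at *Alpl* to 0.50 at *Spp1*, with 4 intervals below 0 and 1 above. All 8 had a region at a transcript start, and their WT density had a median of 59.2 counts per kb of locus. On this scale the interval lay above 0 at all 5 endothelial loci (median 0.35) and at 3 of 5 skeletal muscle loci (median 0.28), and none of the muscle genes had a region at its start. Loci of 6 tendon and fibrous tissue genes (median 0.02), 6 chondrocyte genes (median -0.07) and 6 macrophage or osteoclast genes (median 0.0003) had medians close to that of all loci, with single genes on either side, from -0.22 at *Acan* to 0.28 at *Matn1* and from -0.26 at *Ptprc* to 0.35 at *Acp5*. No *Ptprc*, *Tie1*, *Matn1* or *Comp* region lay at a start. The floxed genes had ratios of -0.18 for *Tet1*, -0.24 for *Tet2* and -0.11 for *Tet3*, values that do not measure the deletion. The part of the cell mixture in the results below was not tested, and in bulk samples fewer cells with an open region and a less open region per cell cannot be told apart.

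Chromatin at most of the proteoglycan genes was less accessible in TCKO than in WT, by a modest amount, and the gene bodies and flanks did not all move alike. Of the 9 loci, 7 had a ratio below 0, against 55.2% of all protein-coding loci. For 6 of them the whole interval lay below 0, against 34.2% of all loci, and for *Kera* the whole interval lay above 0, against 26.1%. These counts are on the total-count scale. With no scaling the interval lay below 0 at 8 of the 9, against 93.0% of all loci, so the excess over all loci depended on the scale. *Lum*, *Prelp* and *Fmod* lay near the low end of all loci, with 4.72% of loci or fewer below each.

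*Lum*, which encodes a keratan sulfate proteoglycan of cornea and other connective tissue, had the lowest ratio with 10 kb on either side. Its 3 regions held 1019 WT and 443 TCKO counts, a ratio of -0.48 (-0.65 to -0.32), and 1.48% of loci were lower. The place of *Lum* depended on the window, since with 25 kb on either side it had -0.18 and *Prelp* -0.63, and within 2 kb of a start *Lum* had -0.69 and *Prelp* -1.26. *Prelp*, whose product links basement membranes to the collagen beneath, followed with 3364 WT and 1548 TCKO counts over 11 regions, a ratio of -0.40 (-0.49 to -0.32). *Fmod*, a collagen-binding proteoglycan best known from tendon, had 2038 and 990 counts over 9 regions and a ratio of -0.32 (-0.43 to -0.21). For *Dcn*, the decorin gene, whose protein binds collagen and TGF-β, 8 regions held 2068 WT and 1041 TCKO counts, a ratio of -0.27 (-0.38 to -0.17).

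*Omd*, which encodes the keratan sulfate proteoglycan of mineralised bone matrix also called osteoadherin, was close to *Dcn*, with 2271 WT and 1154 TCKO counts over 4 regions and a ratio of -0.26 (-0.36 to -0.16). *Epyc*, a gene of growth plate cartilage, had 849 and 449 counts over 11 regions and a ratio of -0.20 (-0.37 to -0.04). Without its region at 43.3 kb *Epyc* had -0.07 (-0.24 to 0.10), so that its interval below 0 was not stable to the choice of regions. At *Aspn*, which encodes an asparagine- and aspartate-rich relative of decorin, 2941 counts in WT and 1686 in TCKO over 12 regions gave -0.09, with an interval from -0.17 to 0.0009. These values placed *Aspn* near the middle of all loci, of which 36.4% were lower.

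The last pair in the order lay above 0. *Ogn*, the osteoglycin gene, had 1103 WT and 728 TCKO counts over 7 regions, a ratio of 0.12 (-0.02 to 0.25). *Kera*, which encodes a keratan sulfate proteoglycan of the cornea, had more raw counts in TCKO than in WT in spite of the smaller TCKO total, 237 against 197 over 3 regions, a ratio of 0.98 (0.71 to 1.26) that exceeded 97.9% of loci. Most neighbours in this order could not be separated by their counts. From *Lum* to *Aspn*, each step between neighbouring genes was at most 0.12 and its interval included 0. The steps from *Aspn* to *Ogn* (0.20, 0.04 to 0.36) and from *Ogn* to *Kera* (0.87, 0.56 to 1.17) did not include 0.

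**Figure D1:**
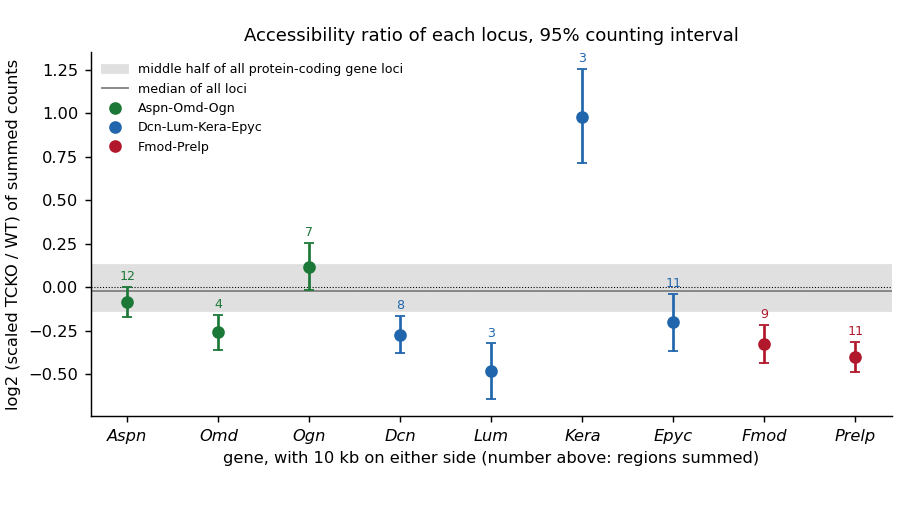
Log2 ratio of scaled TCKO over WT counts (vertical axis) for each gene with 10 kb on either side, grouped by cluster. Points are summed counts, bars are 95% counting intervals, the number above each bar is the count of regions, and the grey band holds the loci of protein-coding genes from the 25th to the 75th percentile (-0.14 to 0.13). *Lum*, *Prelp*, *Fmod*, *Dcn*, *Omd* and *Epyc* lie below 0 with their bars, and *Kera* alone lies well above.

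The loci were not equally open to begin with. Per kb of locus, WT counts ran from 108 at *Prelp* through 74.8 at *Omd*, 68.2 at *Aspn* and 65.7 at *Fmod* to 37.0 at *Lum*, 35.3 at *Dcn* and 30.3 at *Ogn*. *Epyc* (14.5) and *Kera* (7.35) were the least accessible, below all but 17.9% and 9.81% of protein-coding loci. The counting intervals of *Aspn* and *Fmod* overlapped, and so did those of *Lum* and *Dcn*, so the order within these pairs is not resolved. *Kera*, the gene with the highest ratio, was thus also the gene with the fewest reads, and the 95% interval given for it is the widest of the 9.

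At the transcript starts, every member with a region there had fewer scaled counts in TCKO, by an amount that passed its counting interval at 5 genes and not at *Dcn* and *Ogn*. Of the 68 regions, 10 had their midpoint within 1 kb of an annotated start of their own member gene, and they belonged to 7 genes. *Kera* and *Epyc* had none. All 10 ratios were below 0, against 60.5% of the 22831 such regions at protein-coding genes. For 6 of the 10 the interval lay below 0, against 29.7%, and 2 of the 10 were at least 2-fold lower, against 1.27%. Together they held 4182 WT and 1764 TCKO counts, a ratio of -0.53 (-0.61 to -0.45). The other 58 member regions held 11668 and 6512 counts, a ratio of -0.12 (-0.17 to -0.08), and the difference between the 2 sets was -0.40 (-0.50 to -0.31). The *Prelp* region at the start of *Optc* (912 and 310 counts) was counted among the 58, since only starts of the members were used. Over the whole table a like contrast, taken at the starts of any protein-coding gene, was smaller. Regions at starts had a summed ratio of -0.11 and all others 0.04.

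The *Prelp* start showed the lowest ratios. The region over it, chr1:133921321-133921895 (GRCm38), which includes exonic sequence, held 578 WT and 150 TCKO counts, a ratio of -1.23 (-1.49 to -0.97), and 0.565% of regions at starts were lower. A second, intronic region 0.4 kb after the start held 104 and 23 counts, a ratio of -1.44 (-2.11 to -0.81). Scaled to the WT total, the TCKO counts of these regions were 247 and 37.8. The fold enrichment of the peak summit at the first region was 6.61 in WT and 3.48 in TCKO, and at the second a summit was called in WT alone.

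*Lum* and *Omd* came next. At *Lum*, chr10:97564984-97565863 held 469 WT and 176 TCKO counts, a ratio of -0.69 (-0.95 to -0.45). At *Omd*, chr13:49581543-49582386, which lies just before the annotated start, held 1133 WT and 433 TCKO counts, a ratio of -0.67 (-0.83 to -0.51). Both were lower than all but 3.57% and 3.83% of regions at starts. The summit enrichment moved less, from 6.72 in WT to 5.52 in TCKO at *Lum* and from 6.75 to 5.81 at *Omd*.

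The *Aspn* and *Fmod* starts were alike in ratio. The *Aspn* region chr13:49544318-49544620 held 368 WT and 165 TCKO counts, a ratio of -0.44 (-0.70 to -0.18), and the *Fmod* region chr1:134037219-134037590 held 338 and 151, a ratio of -0.44 (-0.72 to -0.17). At the remaining starts the interval included 0. *Dcn* had 338 WT and 185 TCKO counts at chr10:97479363-97479806, a ratio of -0.15 (-0.41 to 0.11), and there the summit enrichment was higher in TCKO (8.60) than in WT (5.49). *Ogn* had 484 and 278 counts at chr13:49607787-49608122, a ratio of -0.08 (-0.30 to 0.13), and its other regions near the start, with 80 against 39 and 290 against 164 counts, had ratios of -0.31 and -0.10.

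The sequences before 3 of these starts, *Prelp* and *Omd* with low ratios and *Ogn* with ratios near 0, are shown so that their CpG content can be seen, CpG being the dinucleotide on which TET enzymes mostly act. Each holds the 250 bases that end just before a RefSeq transcript start (GRCm38.p6), 5′ to 3′ on the strand of the gene: *Prelp* at chr1:133921402-133921651 on the minus strand, *Omd* at chr13:49582212-49582461 on the plus strand and *Ogn* at chr13:49607765-49608014 on the plus strand. Capitals mark CpG and matches to the searched consensus letters. The letters were TGTGGT for Runt factors, TGANTCA for AP-1 and GGAATG for TEAD factors, each on either strand, so that ACCACA and CATTCC also count.
Prelp promoter: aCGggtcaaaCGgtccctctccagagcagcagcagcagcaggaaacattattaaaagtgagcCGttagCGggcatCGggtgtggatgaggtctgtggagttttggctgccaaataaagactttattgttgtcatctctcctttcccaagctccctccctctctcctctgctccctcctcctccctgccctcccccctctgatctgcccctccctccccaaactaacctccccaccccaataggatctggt
Omd promoter: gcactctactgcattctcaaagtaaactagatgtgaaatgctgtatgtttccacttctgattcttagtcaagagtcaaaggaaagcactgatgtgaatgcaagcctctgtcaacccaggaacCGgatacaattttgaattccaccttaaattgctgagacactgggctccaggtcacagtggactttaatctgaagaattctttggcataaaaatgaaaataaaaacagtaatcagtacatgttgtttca
Ogn promoter: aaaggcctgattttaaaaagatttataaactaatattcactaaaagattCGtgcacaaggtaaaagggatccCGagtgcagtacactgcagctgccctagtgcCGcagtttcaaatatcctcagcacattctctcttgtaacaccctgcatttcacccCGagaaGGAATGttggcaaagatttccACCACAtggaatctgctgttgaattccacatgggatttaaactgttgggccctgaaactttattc
*Prelp* held 5 CpG in these bases, *Omd* 1 and *Ogn* 4, against a median of 6 over 32851 RefSeq promoters. The RefSeq table held promoters for 7 of the 9 genes, in 8 rows, and not for *Dcn* and *Lum*. In the other members' rows, *Fmod* and *Aspn* had 2 CpG each, *Kera* 1, and *Epyc* 2 and 0. *Ogn* was the member promoter with both a Runt and a TEAD match, and the second *Epyc* row had a TEAD match. Runt letters were found in 14.0% of all RefSeq promoters, AP-1 letters in 6.75% and TEAD letters in 12.6%. All these promoters thus held fewer CpG than the median promoter, *Prelp* included, where the difference between the genotypes was widest.

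**Figure D2:**
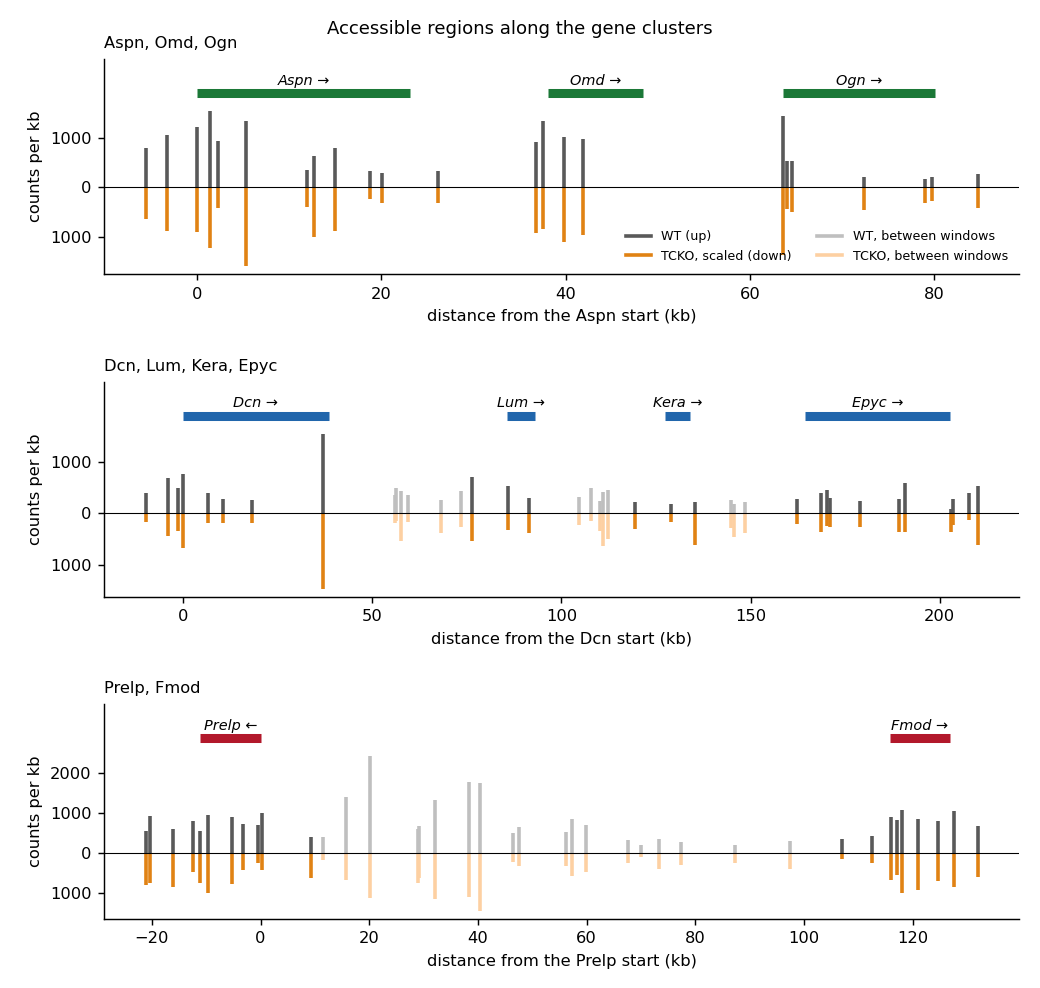
Counts per kb of region (vertical axis) in WT (upward) and in TCKO after scaling (downward) along the 3 gene groups, against distance from the start of *Aspn*, *Dcn* or *Prelp* in kb. Bars above show the genes with an arrow for their direction, and pale lines are regions between the 10 kb windows. The regions around the *Prelp* start are shorter downward than upward, as is the tallest pale line between *Prelp* and *Fmod*, while the region at the *Dcn* end is tall in both.

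Within the *Aspn*, *Omd* and *Ogn* group the ratio varied with the position in the gene. The group spans 80.1 kb, and all of it lies inside *Cenpp*, a gene for a centromere protein that runs on the opposite strand, so a region here cannot be given to either gene from its place alone. The 5 regions of *Aspn* from 5.6 kb before its start to 2.3 kb after it all had ratios below 0. The lowest was in the intron at chr13:49546662-49546823, with 152 WT and 42 TCKO counts, a ratio of -1.13 (-1.63 to -0.65) and a summit in WT alone. The next region, 5.3 kb into the gene at chr13:49549549-49549962, had the most counts of any *Aspn* region, 552 in WT and 402 in TCKO, and a ratio of 0.26 (0.07 to 0.45), which went below 0 without scaling (-0.46) and with the background of the peak caller (-0.35). Its summit enrichment was 7.50 in WT and 10.8 in TCKO. A region at 12.7 kb, with 217 and 211 counts, was higher still at 0.67 (0.40 to 0.95). The *Aspn* locus near 0 was thus a sum of lower regions at its front and, behind them, regions that mostly held an equal or higher share of counts.

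*Omd* and *Ogn* showed a like division. At *Omd* the start region supplied 49.9% of the WT counts of the locus, and the other 3 regions had ratios from -0.01 to 0.10, so without the start region the locus had 1138 WT and 721 TCKO counts and a ratio of 0.06 (-0.08 to 0.19). The lower *Omd* ratio thus rested on its start region. At *Ogn* the 3 regions near the start had ratios below 0, and the 4 farther along had ratios above 0. The last of these, 21.1 kb after the start at chr13:49628827-49629412, had 159 WT and 151 TCKO counts, a ratio of 0.64 (0.32 to 0.96).

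The *Dcn*, *Lum*, *Kera* and *Epyc* group spans 203 kb and divided by gene. All 8 regions of *Dcn* had ratios below 0, and for 5 of them the interval lay below 0. The lowest was 9.9 kb before the start at chr10:97469422-97470044, with 240 WT and 66 TCKO counts, a ratio of -1.14 (-1.54 to -0.75). An intronic region 6.7 kb into the gene had 39 and 11 counts and -1.07 (-2.06 to -0.16). The region with the most counts of the whole group lay in an intron near the end of *Dcn*, at chr10:97516235-97516910. It held 1042 WT and 603 TCKO counts, a ratio of -0.07 (-0.22 to 0.07), and its summit enrichments of 19.4 and 17.6 were the highest at any member region in either genotype. It supplied 50.4% of the WT counts of *Dcn*, and without it the locus had a ratio of -0.51 (-0.67 to -0.35).

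*Lum* was lower at its start and at a region 9.1 kb before it (chr10:97555646-97556393, 521 counts in WT and 243 in TCKO, -0.38, -0.60 to -0.16). Its remaining region, in an intron at 5.9 kb, held only 29 and 24 counts, a ratio of 0.43 (-0.33 to 1.22). At *Kera* a single region held most of the difference. At chr10:97614680-97615120, just past the 3′ end of the gene and 8.0 kb after its start, WT had 95 counts and TCKO 167, a ratio of 1.52 (1.17 to 1.89), and the summit enrichment was 5.38 in WT and 7.57 in TCKO. Without that region *Kera* held 102 and 70 counts and a ratio of 0.17 (-0.26 to 0.61), and the single region inside the gene body had -0.06 (60 and 35 counts).

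*Epyc* mixed both directions. Its region with the most counts, which includes exonic sequence 26.4 kb after the start at chr10:97670291-97670629, had 198 WT and 77 TCKO counts, a ratio of -0.64 (-1.02 to -0.27). Past the end of the gene, chr10:97687230-97687527 had 116 WT and 25 TCKO counts, the lowest ratio of all 68 regions at -1.47 (-2.12 to -0.88). Nearby, a small region directly after the annotated end (chr10:97682455-97682579) had the highest, 10 counts in WT and 28 in TCKO, a ratio of 2.10 (1.18 to 3.22) that rests on few reads.

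*Prelp* and *Fmod*, which lie on opposite strands and face away from each other, had no region at least 2-fold higher. At *Fmod*, 8 of the 9 regions had ratios below 0. The lowest, 8.8 kb before the start at chr1:134028274-134028624, had 128 WT and 30 TCKO counts, a ratio of -1.36 (-1.95 to -0.81) and a summit in WT alone. The *Fmod* region with the most counts, in an intron 2.3 kb after the start at chr1:134039327-134039703, had 411 and 229 counts and -0.13 (-0.36 to 0.11). At *Prelp* the ratio changed along the gene. It was lowest at the start, -0.79 (-1.09 to -0.49) at an intronic region 3.2 kb in with 336 and 118 counts, -0.24 at 5.3 kb, 0.06 at 9.8 kb, and 0.43 (0.15 to 0.72) at the 3′ end with 218 and 179 counts. The *Prelp* region with the most counts, chr1:133908392-133909511, had 912 WT and 310 TCKO counts, a ratio of -0.84 (-1.03 to -0.65). It lies 12.5 kb past the *Prelp* start and at the start of *Optc*, another small leucine-rich proteoglycan gene (opticin), and 3 further regions of the *Prelp* window lie inside *Optc*. Without the region at 12.5 kb the *Prelp* locus had a ratio of -0.27 (-0.37 to -0.17). At 4 of the 11 *Prelp* regions the interval lay above 0. They were that at the 3′ end, those inside *Optc* at 16.0 kb (0.45) and 21.2 kb (0.52), and a small region 9.2 kb before the start (46 and 44 counts, 0.64).

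**Figure D3:**
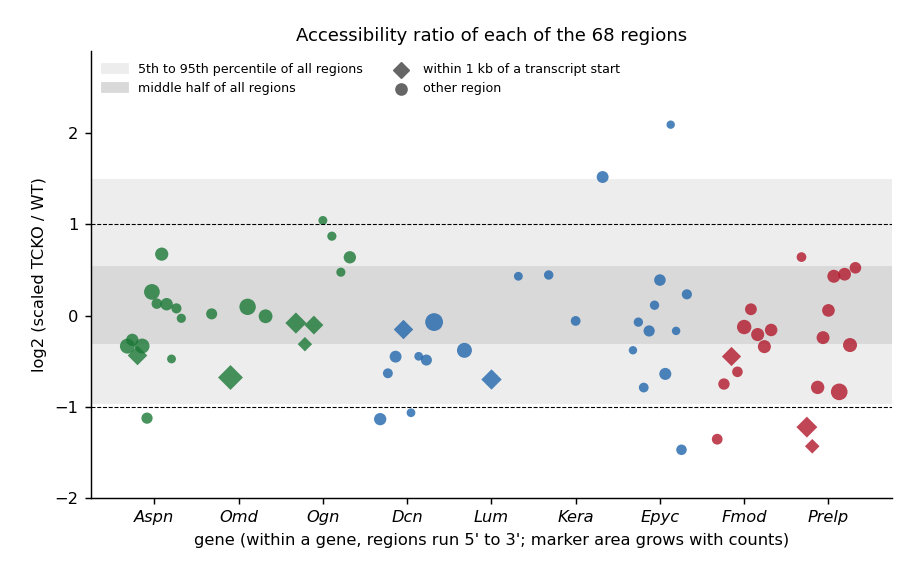
Log2 ratio of scaled TCKO over WT counts (vertical axis) of each of the 68 regions, by gene, with regions of a gene ordered from 5′ to 3′ and markers that grow with the counts. Diamonds are regions within 1 kb of a transcript start of the gene named. Dashed lines mark 2-fold, and grey bands hold all regions between the 25th and 75th percentiles (-0.30 to 0.54) and between the 5th and 95th (-0.96 to 1.48). All 10 diamonds and all 8 *Dcn* regions lie below 0, and at *Ogn* the diamonds lie below the 4 regions that follow them.

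Compared as groups, *Aspn*, *Omd* and *Ogn* had 6315 WT and 3568 TCKO counts over 23 regions, a ratio of -0.11 (-0.17 to -0.05). *Dcn*, *Lum*, *Kera* and *Epyc* had 4133 and 2170 counts over 25 regions, a ratio of -0.21 (-0.29 to -0.14). The difference of 0.11 (0.01 to 0.20) was small beside the differences among genes within each group, and it was not stable to the choice of genes. It ranged from 0.03 without *Lum* (-0.08 to 0.13) to 0.20 without *Kera* (0.10 to 0.30), its interval also included 0 without *Aspn* (0.09), *Ogn* (0.05) or *Dcn* (0.05), and with 25 kb on either side of each gene it was -0.0003. *Fmod* and *Prelp*, with 5402 and 2538 counts over 20 regions, had -0.37 (-0.44 to -0.30). This was lower than the *Aspn*, *Omd* and *Ogn* group by 0.27 (0.18 to 0.36) and lower than the *Dcn* group by 0.16 (0.06 to 0.26).

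Against the regions between 10 and 110 kb outside each group, the *Dcn* group was lower by -0.35 (-0.47 to -0.24), and *Fmod* and *Prelp* by -0.41 (-0.49 to -0.33). The flanks of the *Dcn* group were unequal, with -0.05 (-0.16 to 0.06) over 16 regions on the *Dcn* side and 0.54 (0.38 to 0.70) over 6 regions on the *Epyc* side. The *Aspn* group gave no single answer. Its difference from the flanks was 0.13 (0.05 to 0.20) with flanks of 100 kb, 0.01 with 50 kb and -0.07 (-0.14 to -0.005) with 200 kb. The flank on the *Aspn* side, which holds *Ecm2*, a gene for a leucine-rich matrix protein, had a ratio of -0.55 (-0.62 to -0.47) over 15 regions, and the flank on the *Ogn* side had 0.05 (-0.02 to 0.12) over 13 regions.

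Region by region, on the total-count scale, the members leaned toward lower accessibility while the table as a whole leaned the other way. The lean of the table depended on this scale. With the background of the peak caller the median of all regions was -0.54 and of the members -0.76, and without scaling -0.64 and -0.87. The values that follow are on the total-count scale unless another is named. The median ratio of the 68 regions was -0.16 and of all regions 0.06, and 44 of the 68 were below 0, against 45.4%. The interval lay below 0 at 25 of them (18.9% of all regions) and above 0 at 12 (29.5%). At least 2-fold lower were 7 regions, or 10.3%, against 4.51% of all regions. They were 2 of *Dcn*, 2 of *Prelp* and 1 each of *Aspn*, *Epyc* and *Fmod*. At least 2-fold higher were 3 regions, or 4.41%, against 12.3%, namely those past *Kera* and *Epyc* described above and an intronic *Ogn* region 8.7 kb after the start with 25 WT and 32 TCKO counts (1.04, 0.33 to 1.82). The interval lay wholly past 2-fold lower at 0 of the 68 (0.654% of all regions) and wholly past 2-fold higher at 2, those past *Kera* and *Epyc* (3.82%). The split of 7 lower and 3 higher became 29 and 1 without scaling, where 25.6% of all regions were lower and 3.17% higher. With the background of the peak caller it became 22 and 1, where 19.9% of all regions were lower and 3.91% higher. Much of this change was thus shared by the whole table. With these few reads the 2-fold calls are not firm, and no replicates were there to check them.

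The 3 regions with the lowest ratios and at least 50 counts included 2 outside gene bodies, and these are shown beside the *Kera* region with the highest. They are given on the plus strand of GRCm38, with capitals for CpG and consensus matches as before, for chr1:134028300-134028599 (the middle of the *Fmod* region), chr10:97687230-97687527 (*Epyc*) and chr10:97614751-97615050 (the middle of the *Kera* region).
Fmod upstream region: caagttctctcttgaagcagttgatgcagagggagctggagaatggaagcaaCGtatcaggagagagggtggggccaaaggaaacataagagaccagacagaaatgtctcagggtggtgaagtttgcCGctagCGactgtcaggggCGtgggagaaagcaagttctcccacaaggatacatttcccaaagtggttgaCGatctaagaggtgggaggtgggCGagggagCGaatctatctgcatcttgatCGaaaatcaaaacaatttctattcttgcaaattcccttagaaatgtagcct
Epyc downstream region: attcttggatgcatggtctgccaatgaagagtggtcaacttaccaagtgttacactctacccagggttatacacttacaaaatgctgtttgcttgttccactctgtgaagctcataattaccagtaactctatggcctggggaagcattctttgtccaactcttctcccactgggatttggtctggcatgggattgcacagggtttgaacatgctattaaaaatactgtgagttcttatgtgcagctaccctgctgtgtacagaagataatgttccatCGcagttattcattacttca
Kera downstream region: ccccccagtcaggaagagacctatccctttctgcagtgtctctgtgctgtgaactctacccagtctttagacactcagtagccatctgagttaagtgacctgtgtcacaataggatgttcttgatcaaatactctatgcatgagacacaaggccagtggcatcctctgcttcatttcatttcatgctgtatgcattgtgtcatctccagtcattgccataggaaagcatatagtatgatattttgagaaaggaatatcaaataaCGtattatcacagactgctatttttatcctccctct
The *Fmod* sequence has 8 CpG, and the *Epyc* and *Kera* sequences have 1 each, although *Epyc* and *Kera* lay at opposite ends of the ratios. None of the 3 holds the searched Runt, AP-1 or TEAD letters.

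CpG was scarce over the members as a whole. Their regions held 1.15 CpG per 100 bp, against 2.16 over all regions, with 0.69 in the *Aspn* group, 0.84 in the *Dcn* group and 2.01 at *Fmod* and *Prelp*. The 10 regions at starts held 1.24 CpG per 100 bp, against 6.28 over all regions at protein-coding starts, so these starts were poor in CpG. Across the 68 regions, which share the same libraries, Spearman's rho between the ratio and CpG per 100 bp was -0.31 and Pearson's r was -0.36, against a rho of -0.22 over all regions. With WT counts per kb rho was -0.29 and r -0.27, against a rho of -0.41 over all regions. Both are descriptions across regions, which are not independent replicates. The WT count enters both the ratio and WT counts per kb, so a negative rho between them is partly built in, and no conclusion is drawn from it.

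Consensus letters were counted in the central 200 bp of each region. Runt letters were present in 10 of the 68 member regions (14.7%), against 22.2% of all regions, AP-1 letters in 15 (22.1%), against 23.6%, and TEAD letters in 9 (13.2%), against 16.3%. Over the whole table, regions with AP-1 letters had a median ratio of 0.42 and those without had -0.02. In the members these medians were -0.008 and -0.21, so the direction was alike and the level lower. The groups differed, with 0.48 and -0.09 in the *Aspn* group and -0.06 and -0.28 at *Fmod* and *Prelp*. In the *Dcn* group, where 8 regions had AP-1 letters, the direction was the other way, -0.28 and -0.17. The contrast was also not particular to AP-1. Member medians with and without TEAD letters were -0.008 and -0.21, and with and without Runt letters -0.08 and -0.19.

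**Figure D4:**
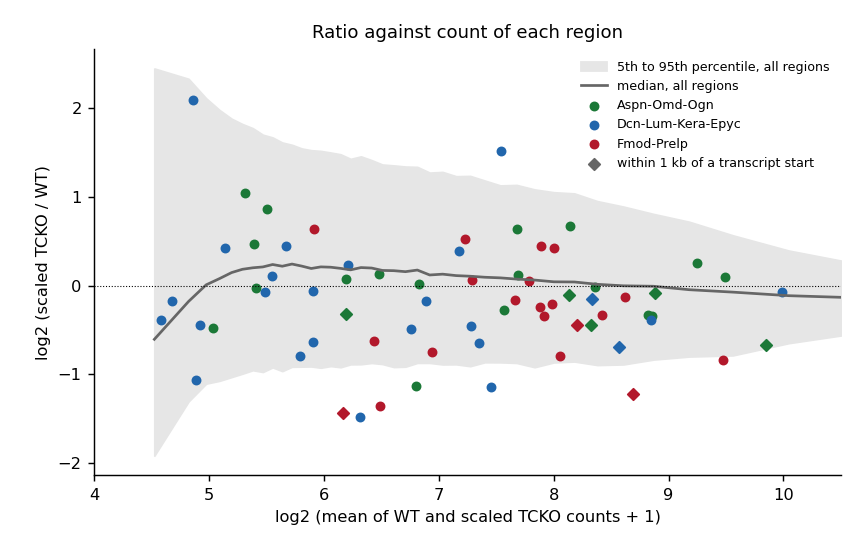
Log2 ratio of scaled TCKO over WT counts (vertical axis) of the 68 member regions against log2 of their mean count (horizontal axis), coloured by gene group. Diamonds are regions within 1 kb of a transcript start of their member gene. The line is the median of all regions at that count and the band their 5th to 95th percentiles. Many member regions lie under the line at low and at high counts. Some lie below the band, among them the *Prelp* start regions, the *Fmod* region 8.8 kb before its start and the *Epyc* region at 43.3 kb. The *Kera* region at 8.0 kb lies above it.

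The separate peak lists gave a view that does not use the scaling of the counts. Summit calls and fold values still depend on depth, and the lists differed in length, with 316241 summits in WT and 227919 in TCKO. A summit was called in both genotypes at 43 of the 68 regions (63.2%, against 56.8% of all regions), in WT alone at 21 (30.9%, against 33.0%) and in TCKO alone at 4 (5.88%, against 10.2%). The 21 regions had a median of 60 counts in WT and 26 in TCKO, so they were mostly small peaks. With both lists cut to equal numbers of summits, 9 member regions had a summit in WT alone (13.2%, against 14.4%) and 7 in TCKO alone (10.3%, against 17.0%), so most of the imbalance went with the length of the lists. At the 43 regions with a summit in both lists, the fold enrichment over the local background was lower in TCKO at 33 (76.7%), against 69.7% over all regions, with a median log2 difference of -0.21 against -0.19. By this measure the members were close to the whole table.

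The other genes of the family and the collagens they bind had medians nearer to that of all loci. Of 9 further small leucine-rich proteoglycans and relatives, 5 loci had the interval below 0 and 1 above, with a median of -0.12, from -0.38 at *Ecm2* to 0.11 at *Tsku*, whose product is a secreted signalling modulator. *Optc*, whose window overlaps that of *Prelp*, had -0.12, and *Bgn* (biglycan), the closest relative of decorin, had -0.06 with an interval that included 0. Of 10 genes for fibrillar, microfibrillar and fibril-associated collagens, 8 loci had the interval below 0 and 1 above, with a median of -0.13, from -0.29 at *Col5a1* to 0.23 at *Col3a1*. The median of the 9 members was -0.26 and that of all loci -0.02. Over all loci the interval lay below 0 at 34.2% and above 0 at 26.1%. By this count the members, with 6 of 9 below and 1 above, did not stand apart from the collagens.

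The scale on which the libraries are set moved every value together. The factor for TCKO was 1.64 by total counts, 1.56 by TMM, 1.57 by DESeq2 size factors and 1.08 by the background recovered from the peak caller, and the median over all loci was -0.02, -0.10, -0.09 and -0.63 in that order. With no scaling it was -0.74. Under each of these factors, 7 of the 9 loci lay below the median of all loci, and *Ogn* and *Kera* above it. Each factor is a constant that moves every locus alike, so this place was all but fixed in advance and is no check of the result. The ratio of *Kera* was above 0 under each of them, from 0.26 with no scaling. *Ogn*, in contrast, went below 0 without scaling (-0.60) and with the background of the peak caller (-0.49). These settings shifted all loci by -0.72 and -0.61, so that other ratios given here as slightly above 0 also went below it.

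**Figure D5:**
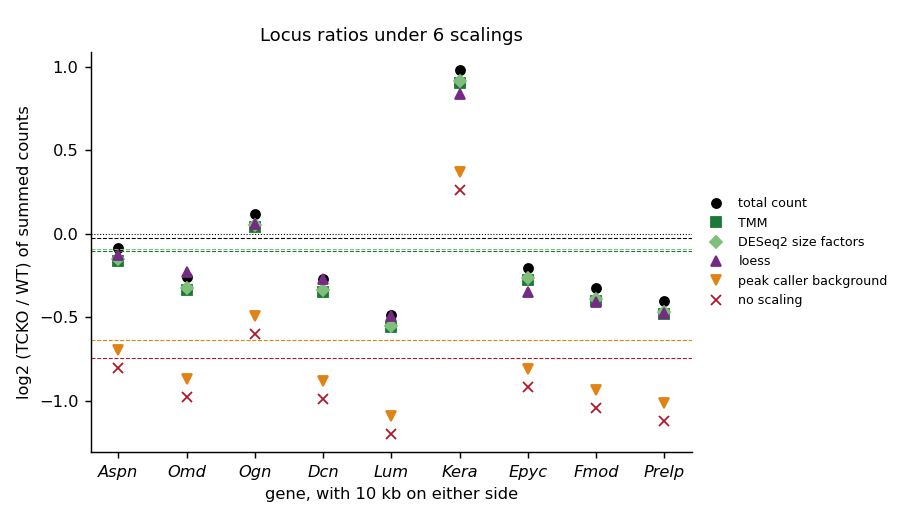
Log2 ratio of TCKO over WT (vertical axis) of each locus under 6 scalings, a symbol each, with dashed lines for the median of all loci under the 5 constant factors. *Lum* is the lowest and *Kera* the highest under each, but a constant factor moves all genes alike, so only loess could have changed their order appreciably. The whole set moves down with no scaling or with the peak caller background.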

How the data were processed

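ATAC-seq of primary osteoblasts was listed as 2 samples a genotype. Per the study's methods and the processing notes, the authors aligned reads to GRCm38 with STAR 2.7.0e, merged replicates and called peaks with MACS2. CASAVA is also named, and removal of duplicate reads was not given in the sources used here. The deposited count table holds raw counts of reads in each region, in 1 merged column a genotype, and 0 other columns of sample values were left aside. In the peak lists, the authors give every summit's fold enrichment, a ratio to local background, with −log10 values for p and q (deposited by the authors as −log10 p-value and −log10 q-value).

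Here, the 9 genes and the lists were chosen with earlier results of these data known. Regions within 10 kb of each gene (GENCODE M21) were summed. Reference chromosomes were long enough for every coordinate. The ratio was log2 of scaled TCKO plus 1 over WT plus 1, with a 95% Wilson interval. Differences between sets carried the interval of a log odds ratio. Depth was 56898657 counts in WT and 34608167 in TCKO, and PCR duplicates make reads less independent than the intervals assume. The planned edgeR quasi-likelihood test needs replicate columns and was not run, so no p-value was computed.

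Named regions were, for each gene, those at its start (within 1 kb) and that with the most counts, the 3 largest falls and rises with at least 50 counts, and those wholly past 2-fold. Some other regions were named after their values were seen, to show how ratios vary along *Aspn*, *Omd*, *Ogn*, *Dcn*, *Epyc* and *Prelp*. Alternatives were TMM (edgeR 4.0.16, R 4.3.3), DESeq2 1.42.0 size factors, no scaling, the peak caller's background, loess (statsmodels 0.14.6, span 0.3), 10 counts added, at least 50 counts, gene bodies alone, 25 kb, 2 kb around starts, and folds of 1.5 and 3. Calculations ran in Python 3.11.15 with scipy 1.17.1, pandas 2.3.3 and numpy 2.4.6, and the steps were tested on simulated data.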

Additional observations from a re-analysis of the deposited data

How the results depend on the processing

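No paired analysis was possible because each genotype has 1 column, summed over its replicates, and for the same reason no replicate could be left out and neither edgeR nor DESeq2 was run as a test. For the *Aspn*, *Omd* and *Ogn* group, the *Dcn*, *Lum*, *Kera* and *Epyc* group and the *Fmod* and *Prelp* group, the ratios were -0.18, -0.29 and -0.45 with TMM, -0.82, -0.93 and -1.09 without scaling, -0.72, -0.82 and -0.98 with the background of the peak caller, and -0.27, -0.40 and -0.90 within 2 kb of a start. DESeq2 size factors gave -0.17 for the *Aspn* group, and loess gave -0.45 for *Fmod* and *Prelp*. With 25 kb on either side the *Dcn* group had -0.087 and *Fmod* and *Prelp* -0.49. Gene bodies alone turned the *Aspn* group to 0.0086. The difference between the *Aspn* and *Dcn* groups was 0.23 in gene bodies, 0.20 without *Kera* and -0.00030 with 25 kb. Turned in direction were also *Omd* in gene bodies (0.063), *Kera* in gene bodies and within 2 kb of a start (-0.059), *Epyc* with 25 kb (0.17) and the *Aspn* region at 5.3 kb without scaling (-0.46) and with the background of the peak caller (-0.35). Regions at least 2-fold lower numbered 29 without scaling, 22 with the peak caller's background, 4 in gene bodies, 14 with 25 kb, 2 within 2 kb of a start, 16 at 1.5-fold, 0 at 3-fold and 0 with the interval wholly past 2-fold. Those higher numbered 1, 1, 1, 5, 0, 7 and 1 under the first 7 of these settings. Over all regions the shares of lower and higher regions were 25.6% and 3.17% without scaling, and 19.9% and 3.91% with the peak caller's background. The shares were 13.2% and 23.3% at 1.5-fold, 0.784% and 4.03% at 3-fold, and 4.51% and 12.3% where only the window changed. Summits in WT alone numbered 9, and in TCKO alone 7, when both lists were cut to equal numbers. Chosen after the data were seen, flanks of 50 kb gave a difference of 0.011 for the *Aspn* group and -0.55 for the *Dcn* group, flanks of 200 kb gave -0.073 for the *Aspn* group, and starts taken within 2 kb had a ratio of -0.40. The cause of these changes was not tested, apart from fewer or more regions entering the sums. Depth limits single regions most, since the median member region held 253 counts over both genotypes.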

Other observations

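The stretch between *Prelp* and *Fmod*, outside the 10 kb windows, had a lower ratio of TCKO over WT than either gene. Its 19 regions held 10173 WT and 3757 TCKO counts, a ratio of -0.72 (-0.77 to -0.67), which was 0.35 (0.26 to 0.43) below the summed ratio of *Fmod* and *Prelp*. At 13 of the 19 the interval lay below 0 and at 0 above, and 6 were at least 2-fold lower with 0 at least 2-fold higher. The region with the most counts, 20.1 kb before the *Prelp* start at chr1:133940641-133942446 (GRCm38), held 4378 WT and 1226 TCKO counts, a ratio of -1.12 (-1.21 to -1.03). It held more WT counts than any of the 9 member loci. Its summit enrichment differed less, 7.0 in WT and 6.1 in TCKO. Regions at 47.5 kb (486 and 138 counts, -1.10) and 15.8 kb (277 and 80 counts, -1.07) were also at least 2-fold lower.

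The 14 regions between the windows of *Dcn*, *Lum*, *Kera* and *Epyc* leaned the other way, with 1528 WT and 1106 TCKO counts and a ratio of 0.25 (0.14 to 0.36), so that the summed ratio of the 4 genes lay below it by -0.46 (-0.60 to -0.33), although *Kera* itself, at 0.98, lay above it. At 56.3 kb after the *Dcn* start a region nevertheless had 150 WT and 27 TCKO counts, a ratio of -1.73 (-2.34 to -1.17).

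Among the tendon and fibrous tissue genes, whose loci had a median of 0.02, the regions at the starts of *Tnmd* (136 and 40 counts, -1.04) and *Postn* (302 and 108 counts, -0.76) also held fewer counts in TCKO, while the starts of *Tnc* (-0.28), *Scx* (-0.18), *Mkx* (-0.03) and *Thbs4* (0.10) lay nearer to 0. Among the other family genes the starts of *Nyx* (258 and 68 counts, -1.20) and *Optc* (912 and 310 counts, -0.84) did so too, and *Bgn* had 71 and 53 counts at its start, a ratio of 0.29. These starts were picked after their values were seen.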
